A study of Rattus norvegicus with 24 samples.

Results

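Kainate receptors and metabotropic glutamate receptors were followed in the hypothalamus of restrained rats through 10 genes: the kainate subunits Grik1 to Grik5 and the metabotropic receptors Grm2, Grm3, Grm4, Grm5 and Grm7. All probe sets assigned to 1 of these symbols in the platform's gene table were taken. This gave 11 probe sets of the 31042 tested, 1 for each gene and 2 for Grm5, and 10 of 14217 gene symbols. Hypothalamic blocks came from 18 male Wistar rats (an outbred strain) aged 7 weeks, 6 in each of 3 groups, with 1 rat on each array. Control rats were not restrained, a second group was held in wire mesh for 2 h, and the remaining rats were held in the same way while 20 µL of racemic linalool, an odorous alcohol of lavender oil, evaporated into a 40 L box. None of the 18 rats was given the odour without restraint. Control and restraint arrays were normalized together by the authors (the first set), and the same restraint arrays were normalized again with the linalool arrays (the second set). The design therefore allows restraint to be set against control, and linalool with restraint against restraint alone, each inside its own set.

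Glutamate opens ion channels at excitatory synapses and also acts on slower receptors coupled to G proteins. Kainate receptors are tetrameric channels found on both sides of the synapse. GluK1, GluK2 and GluK3 (Grik1, Grik2 and Grik3) can form channels without other subunits, whereas GluK4 and GluK5 (Grik4 and Grik5) bind kainate with high affinity and need one of the former to reach the surface as a working channel. Metabotropic receptors fall into group I, coupled to Gq and mainly postsynaptic (Grm5 here), group II (Grm2 and Grm3) and group III (Grm4 and Grm7), which couple to Gi/o and mostly lower transmitter release. Grm3 is also made by astrocytes. In the hypothalamus these receptors adjust the glutamate input to neuroendocrine neurons.

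Of the 11 probe sets, 1 differed past an adjusted p of 0.05 in either comparison: Grm3 was lower with linalool (adjusted p = 0.00704, limma). In that comparison 25% of all probe sets passed, so a call among the members does not set them apart. Restraint alone gave no call among the members, beside 0.554% of all probe sets. Signals of Grm2, Grm4 and Grm5 varied widely from rat to rat. Most kainate subunits varied so little in the deposited values that their log2 differences cannot be read as sizes.

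Whole-series values set the frame for these results. In the restraint comparison 172 probe sets passed (0.554% of those tested) and in the linalool comparison 7763 (25%), 4403 higher and 3360 lower. With median centring the latter split became 27524 higher and 1466 lower. Of 36 array controls for bacterial or phage RNA, which rats do not make, 15 were higher and 2 lower on the linalool arrays. Another 9 such controls gave 0 higher and 2 lower (limma, adjusted over all 57 array controls). The linalool comparison thus cannot separate an effect of the odour from one of array processing. Column medians lay between 8.157 and 8.19 in the first set and from 8.131 to 8.153 in the second. Of 16 hypothalamic markers, 9 lay above every column median of the first set, with Pmch (12.10), Avp (11.57) and Oxt (10.79) on top, and 7 lay below (Crh, Pomc, Gnrh1, Ghrh, Tbx3, Otp and Sim1, from 8.021 for Tbx3 down to 6.82 for Sim1). All 13 markers of the thalamus, which borders the block, were above, with Tcf7l2 at 12.11 and Prkcd at 10.96. Meningeal marker scores, means over 23 probe sets in residual SDs, ran from -0.89 to 1.77 in controls and from -0.70 to -0.27 in restraint rats. The residual SD is the spread between rats of 1 group, pooled over both groups of a set.

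The spread of a probe set depended on the set in which it was normalized. Over the same 6 restraint arrays, the SD of Grik2 was 0.0155 among control and restraint arrays and 0.000215 among restraint and linalool arrays, a ratio of 71.7, and that of Grm7 was 0.0171 and 0.000227, a ratio of 75.2. The 6 values kept their order (Spearman rho of 1 over 6 arrays for both genes, the points being the same arrays), so the second set holds the same ordering on a much narrower scale. For Grm2, Grm3, Grm4, Grik5 and both probe sets of Grm5 the SD ratio was at most 1.45 (Grik5), and that of Grm3 was the lowest, with SDs of 0.0792 and 0.127. A residual SD under 0.01 is called compressed below, and differences of compressed probe sets are given in residual SDs. Compressed were 83.5% and 83.7% of all probe sets in the 2 sets. Among the members, Grik1, Grik3 and Grik4 were compressed in both sets and Grik2 and Grm7 in the second.

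**Figure D1:**
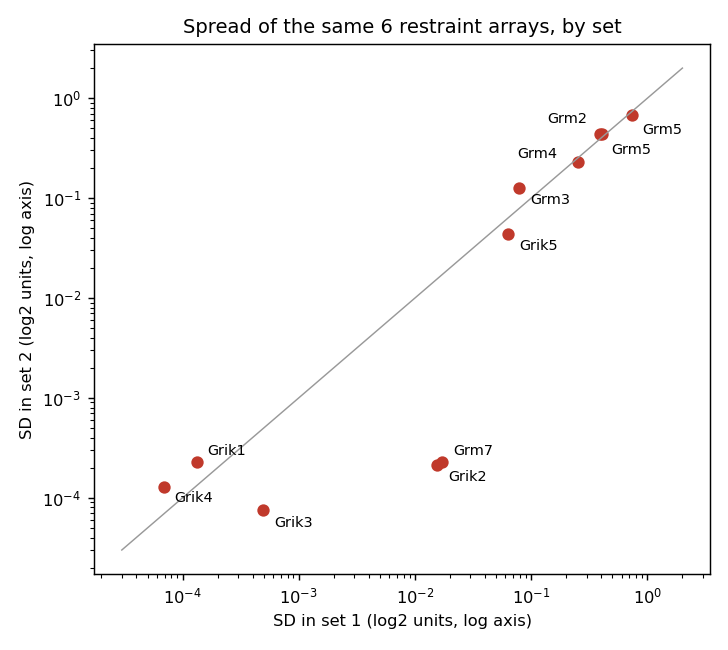
SD over the same 6 restraint arrays in the first set (horizontal axis) and the second (vertical axis), both in log2 units on log axes, with 1 point for each of the 11 probe sets and the line of equal SD. Grik2 and Grm7 lie far below the line, with ratios of 71.7 and 75.2.

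RefSeq promoter windows of the assembly GRCr8 were found for 7 of the 10 members; Grm2, Grm3 and Grm4 had no entry. Of those 7, only Grik5 and Grm5 were uncompressed in both sets, and the 250 bases upstream of their annotated starts are shown for that reason, 5′ to 3′ on the strand of the gene, with GC boxes (GGGCGG on either strand) in capitals. The Grik5 window is chr1:89794910-89795159 (minus strand) and the Grm5 window chr1:150733503-150733752 (plus strand).
Grik5: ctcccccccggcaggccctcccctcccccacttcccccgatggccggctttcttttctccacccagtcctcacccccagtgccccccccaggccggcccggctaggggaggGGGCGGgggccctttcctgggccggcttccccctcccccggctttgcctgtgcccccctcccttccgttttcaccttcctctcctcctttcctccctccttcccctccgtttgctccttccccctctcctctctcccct
Grm5: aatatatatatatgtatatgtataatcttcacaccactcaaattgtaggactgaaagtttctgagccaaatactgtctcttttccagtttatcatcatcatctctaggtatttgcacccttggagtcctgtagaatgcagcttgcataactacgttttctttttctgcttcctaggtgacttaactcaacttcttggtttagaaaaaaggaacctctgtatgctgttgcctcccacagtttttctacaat
The Grik5 window had 70.8% G and C and 1 GC box, and the Grm5 window 36.4% and none; the median of all 33469 windows was 51.2%, and 30.5% of them held a GC box. Neither window held the glucocorticoid receptor hexamer AGAACA on either strand, which 17.5% of windows do, nor the cyclic AMP response core TGACG, which 18.2% do. Among the other 5 windows, Grm7 held 1 AGAACA match and 2 GC boxes, Grik2 held 1 TGACG match and Grik3 held 5 GC boxes. A match describes letters in the window and is not a bound site.

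The restraint comparison asked which transcripts differed after 2 h of restraint. None of the 11 member probe sets passed limma's adjusted p of 0.05, beside 0.554% of all probe sets, and none had an unadjusted p under 0.05, beside 16% of all. The groups overlapped for every member, while they did not for 1.78% of all probe sets. The median member difference was -0.139 residual SDs against 0.12 over all probe sets.

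Among the metabotropic receptors, Grm2, a presynaptic group II autoreceptor, had log2 signals of 8.18, 8.55 and 8.86 (lowest, median and highest) in controls and of 8.47, 8.77 and 9.46 after restraint. Restraint rats 1, 4 and 6 (9.46, 9.30 and 8.91) lay above every control, and the other 3 lay inside the control range. The mean difference was 0.36 (SE 0.184, 95% interval -0.05 to 0.77, adjusted p = 0.36). Grm4, a group III receptor of presynaptic terminals, ran from 8.47 to 9.33 in controls (median 8.95) and from 8.89 to 9.60 after restraint (median 9.29). Its mean was 0.33 higher (SE 0.162, interval -0.03 to 0.69, adjusted p = 0.344), with restraint rats 3 and 6 above every control.

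Grm3, the group II receptor shared by neurons and astrocytes, had signals of 10.58, 10.69, 10.59, 10.46, 10.47 and 10.30 in controls 1 to 6 and of 10.48, 10.53, 10.48, 10.43, 10.43 and 10.30 in restraint rats 1 to 6. The restraint values fell inside the control range (difference -0.07, SE 0.0634, interval -0.21 to 0.07, adjusted p = 0.579). With group means removed, Grm3 correlated over the 12 arrays of this set with the cortical and hippocampal marker score at r = -0.922 and with the oligodendrocyte score at r = 0.866. They were picked as the largest in size among its correlations with the marker scores, and the meningeal score came next at r = -0.761. These arrays share their tissue block and normalization, and the part of such tissue in the Grm3 values was not tested.

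Grm5, the group I receptor that raises intracellular calcium through Gq, was read by 2 probe sets, 1369355_at and 1393665_at. They share the target gene and moved together across rats (r = 0.978 over 12 arrays with group means removed), so they are not independent readings. For 1393665_at the controls had 8.84, 9.15, 9.22, 9.50, 9.36 and 9.44, and the restraint rats 9.21, 9.34, 8.67, 9.25, 9.29 and 7.46. Restraint rat 6 stood far below all others, and restraint rat 3 also lay under the lowest control. The differences were -0.38 for 1393665_at (SE 0.308, interval -1.06 to 0.30, adjusted p = 0.553) and -0.25 for 1369355_at (SE 0.172, interval -0.64 to 0.13, adjusted p = 0.48). Without restraint rat 6 they were -0.10 and -0.11, respectively. Grm7, a group III receptor of presynaptic active zones, was at 8.335 ± 0.0137 in controls and 8.333 ± 0.0171 after restraint (mean ± SD, n = 6 each; adjusted p = 0.923).

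Among the kainate subunits, Grik5 was at 9.32, 9.49 and 9.70 (lowest, median and highest) in controls and at 9.37, 9.47 and 9.55 after restraint. All restraint values lay inside the control range, which ran from control 2 to control 4, and the difference was -0.06 (SE 0.0661, interval -0.21 to 0.08, adjusted p = 0.664). Grik2, a pore-forming subunit widespread in the brain, had 8.793 ± 0.018 in controls and 8.779 ± 0.0155 after restraint, with all 6 restraint rats under the control median (adjusted p = 0.497). The compressed subunits Grik1, Grik3 and Grik4 were 0.886, 0.582 and 1.2 residual SDs higher on average (adjusted p = 0.453, 0.63 and 0.335). The sign of Grik2 turned with quantile normalization, that of Grm7 with quantile normalization or median centring, and those of Grik2, Grik3 and Grik5 without controls 4, 5 and 6, the controls with the highest meningeal scores.

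**Figure D2:**
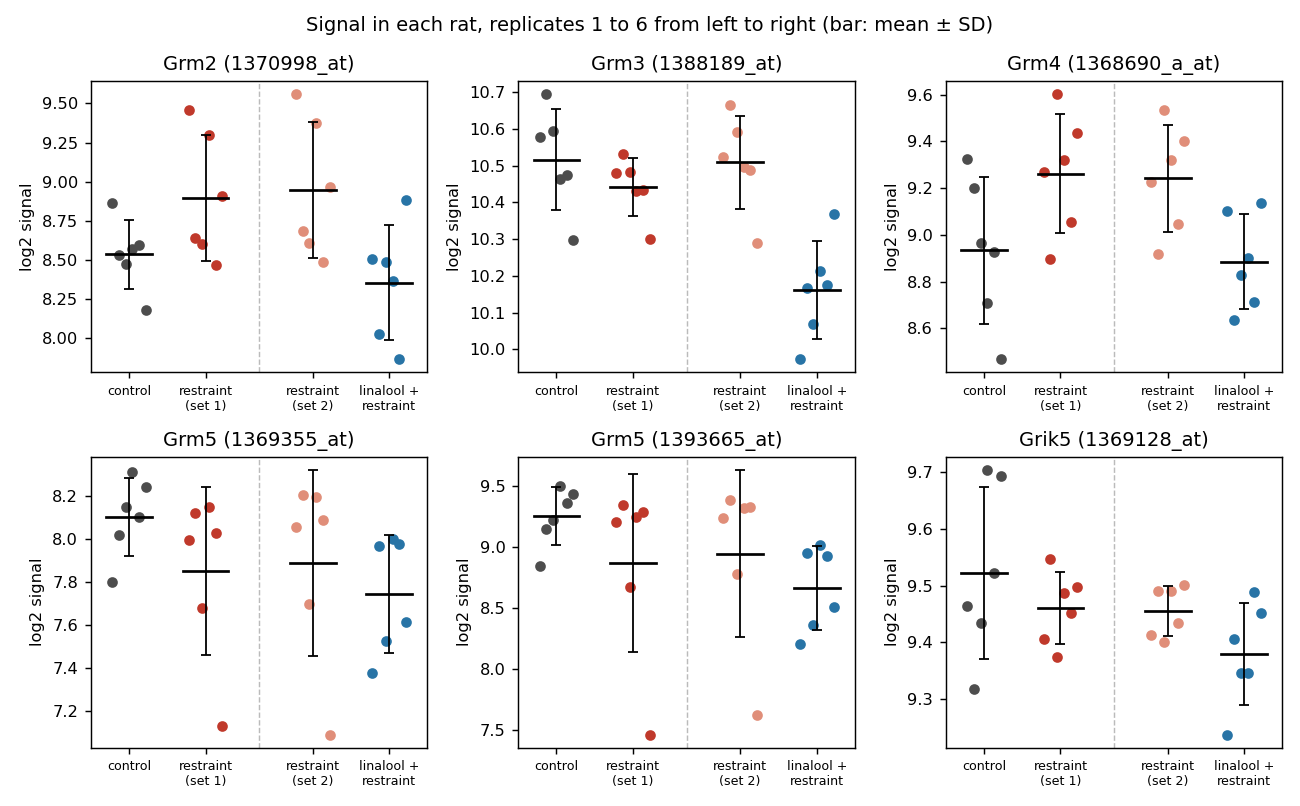
Log2 signal (vertical axes) of the 6 probe sets that were uncompressed in both sets, for each rat of each group, with replicates 1 to 6 from left to right and bars for mean ± SD (n = 6). The dashed line separates the sets, the same restraint rats stand on both sides of it, and Grm3 in linalool rats 1 to 5 lies below every restraint rat.

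The linalool comparison asked what differed when the odour was present during the same restraint. Grm3 fell, and no other member passed: 1 of 11 probe sets (9.09%) was called, beside 25% of all probe sets and 10.8% called lower. Among uncompressed probe sets 49.7% were called, and among the 6 uncompressed member probe sets 1. At an unadjusted p under 0.05 there were 5 members (Grik1, Grik3, Grm2, Grm3 and Grm4), beside 37.7% of all probe sets. Member differences were below 0 for 10 of 11 probe sets, with a median of -1.07 residual SDs against -0.0136 over all. The signs of the compressed Grik1, Grik3, Grik4 and Grm7 turned positive with quantile normalization and with median centring, while those of Grik5, Grm2, Grm3, Grm4 and Grm5 stayed negative. With centring 8 members passed: Grik1, Grik2, Grik3, Grik4 and Grm7 as higher (adjusted p of 0.0358 or 0.0359) and Grm2, Grm3 and Grm4 as lower. For no member were the groups without overlap, against 11.9% of all probe sets.

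Grm3 had signals of 10.52, 10.66, 10.59, 10.50, 10.49 and 10.29 in restraint rats 1 to 6 and of 9.97, 10.17, 10.07, 10.21, 10.17 and 10.37 in linalool rats 1 to 6. Linalool rats 1 to 5 lay below every restraint rat, and linalool rat 6 lay above restraint rat 6 only. The mean fell from 10.51 ± 0.127 to 10.16 ± 0.134 (SD, n = 6 each), a log2 difference of -0.35 (SE 0.0737, 95% interval -0.51 to -0.18, adjusted p = 0.00704) or 0.786 times the level on the deposited scale. In bulk tissue, fewer cells that make a transcript and less of it per cell cannot be told apart.

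Cell type markers were read beside Grm3. Astrocyte scores, means over 17 probe sets, ran from -0.36 to 0.42 in restraint rats and from -0.65 to 0.41 in linalool rats, with 2 probe sets called higher and 3 lower. Neuron scores over 15 probe sets ran from 0.33 to 0.69 and from -1.23 to 0.38, with 0 higher and 3 lower. Those calls were 29.4% of the astrocyte and 20% of the neuron probe sets, beside 25% of all probe sets. The astrocyte scores of the 2 groups thus covered nearly the same range, while the neuron scores overlapped only through linalool rat 6, the rat with the highest Grm3 signal in its group. With group means removed, Grm3 correlated over the 12 arrays with the neuron score at r = 0.436 and with the astrocyte score at r = 0.462. Larger in size were its correlations with the pituitary (-0.598), meningeal (-0.548) and ependymal and choroid plexus (-0.544) scores. The correlation of Grm3 with the cortical and hippocampal score was -0.527, weaker than in the first set. That with the oligodendrocyte score was -0.4, of opposite sign to the first set. Neuron scores of the first set did not overlap, at -0.66 to -0.05 in controls and 0.27 to 0.50 after restraint. Between those groups the Grm3 difference was -0.07 (limma, adjusted p = 0.579). The part of neuronal or other RNA in the Grm3 difference with linalool was not tested.

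Grm4 had 8.92, 9.27 and 9.53 (lowest, median and highest) in restraint rats and 8.63, 8.87 and 9.14 in linalool rats. All 6 linalool rats were under the restraint median and 4 of them under its lowest value. The difference of -0.36 (SE 0.123, interval -0.63 to -0.08) missed the threshold narrowly (adjusted p = 0.057). It passed without restraint rat 2 (-0.42, adjusted p = 0.0271) or without linalool rat 6 (-0.41, adjusted p = 0.0425), and in the other leave-one-out fits the adjusted p lay as high as 0.112.

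Grm4 followed the thalamic markers from rat to rat. Its correlation with the score of 25 thalamic probe sets, group means removed, was r = 0.929 over the 12 arrays of the first set and r = 0.881 over those of the second, which share the 6 restraint arrays. Next came Grm7 with r = 0.777 and 0.747, while Grik2 had r = -0.809 over the linalool and restraint arrays. The thalamic score ran from -0.91 to 1.54 in restraint rats of the second set and from -1.51 to 0.23 in linalool rats. Of its 25 probe sets, 4 were called lower (16%, beside 10.8% of all probe sets) and none higher. Among its 19 uncompressed probe sets 3 were called lower, beside 21.3% of all uncompressed ones, so these counts of calls lay near the general level. The differences were nevertheless below 0 for 21 of the 25, with a median of -1.38 residual SDs against -0.0136 over all probe sets. An unadjusted p under 0.05 (limma) was reached by 16 of the 25, beside 37.7% of all probe sets. With that score as a covariate, an alternative chosen after the data were seen, the Grm4 difference was -0.07 (adjusted p = 0.633), against -0.36 without it. Since the score was itself lower in linalool rats, such a fit also removes some of the difference between the groups. Under the same covariate the Grm3 difference was -0.36 (adjusted p = 0.0488), and that of Grm2 -0.29 (adjusted p = 0.538).

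**Figure D3:**
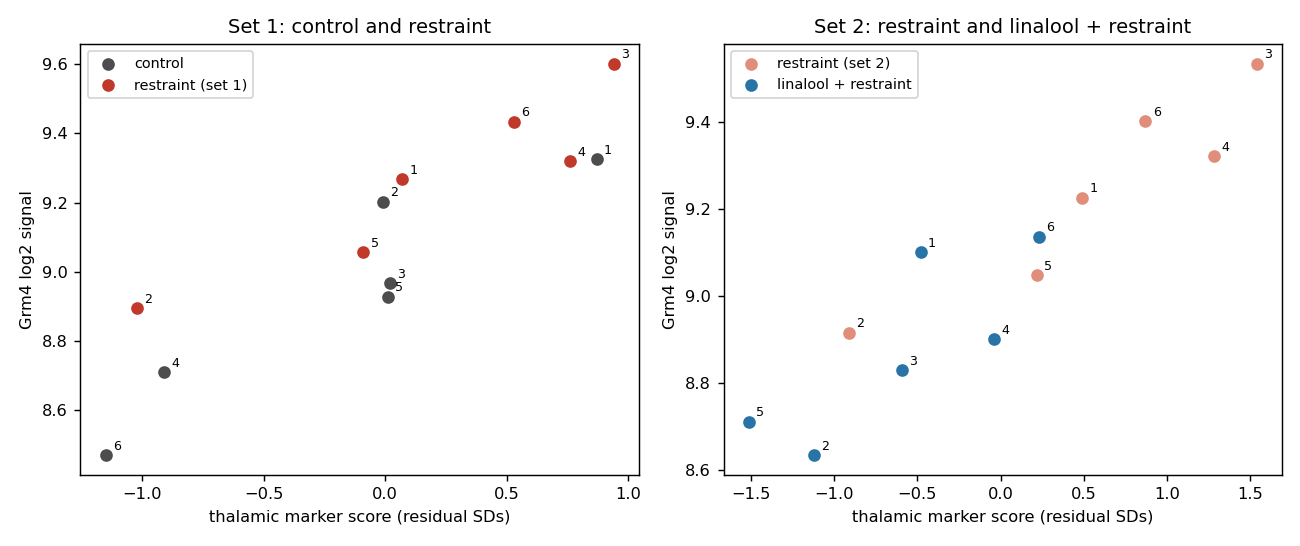
Grm4 log2 signal (vertical axis) against the thalamic marker score in residual SDs (horizontal axis) in each rat of the first set (left) and of the second set (right), coloured by group and numbered by replicate. Rats with a high score had a high Grm4 signal in every group, with r = 0.929 and 0.881 once group means are removed.

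Grm2 had signals of 9.56, 8.69, 8.61, 9.37, 8.49 and 8.97 in restraint rats 1 to 6 and of 8.51, 8.03, 8.49, 8.37, 7.87 and 8.88 in linalool rats 1 to 6. Restraint rats 1 and 4 stood above all others, and the linalool values spread over 1.02 log2 units. On the deposited log2 scale its difference was the largest among the members, at -0.59, but its SE was 0.227 (interval -1.10 to -0.09, adjusted p = 0.0835). For Grm5 the differences were -0.28 for 1393665_at (SE 0.307, adjusted p = 0.544) and -0.14 for 1369355_at (SE 0.204, adjusted p = 0.648). Restraint rat 6 was again the lowest array in both (7.62 and 7.09), and without it the differences were -0.55 and -0.30 (adjusted p = 0.0549 and 0.161). Grm7, compressed in this set, had a difference of -0.693 residual SDs (adjusted p = 0.409).

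Of the kainate subunits, Grik5 had 9.40, 9.46 and 9.50 (lowest, median and highest) in restraint rats and 9.24, 9.38 and 9.49 in linalool rats, with 3 linalool rats below every restraint rat (difference -0.08, SE 0.0401, interval -0.16 to 0.01, adjusted p = 0.197). Grik1 and Grik3 had differences of -1.66 and -1.69 residual SDs (adjusted p = 0.0558 and 0.0531). Those 2 probe sets passed when genes rather than probe sets were tested, 1 probe set a gene (adjusted p = 0.0496 and 0.0472). Grik1 also passed without restraint rat 3 (adjusted p = 0.00519) and Grik3 without linalool rat 1 (0.0494), and both passed without linalool rat 3 (0.0361 and 0.0183). Each thus passed in 2 of 12 leave-one-out fits. In the other fits the adjusted p (limma) lay as high as 0.108 for Grik1 and 0.105 for Grik3. Their ranges within a group were under 0.001 log2 units. For Grik4 and Grik2 the differences were -0.807 and 0.418 residual SDs (adjusted p = 0.335 and 0.633).

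**Figure D4:**
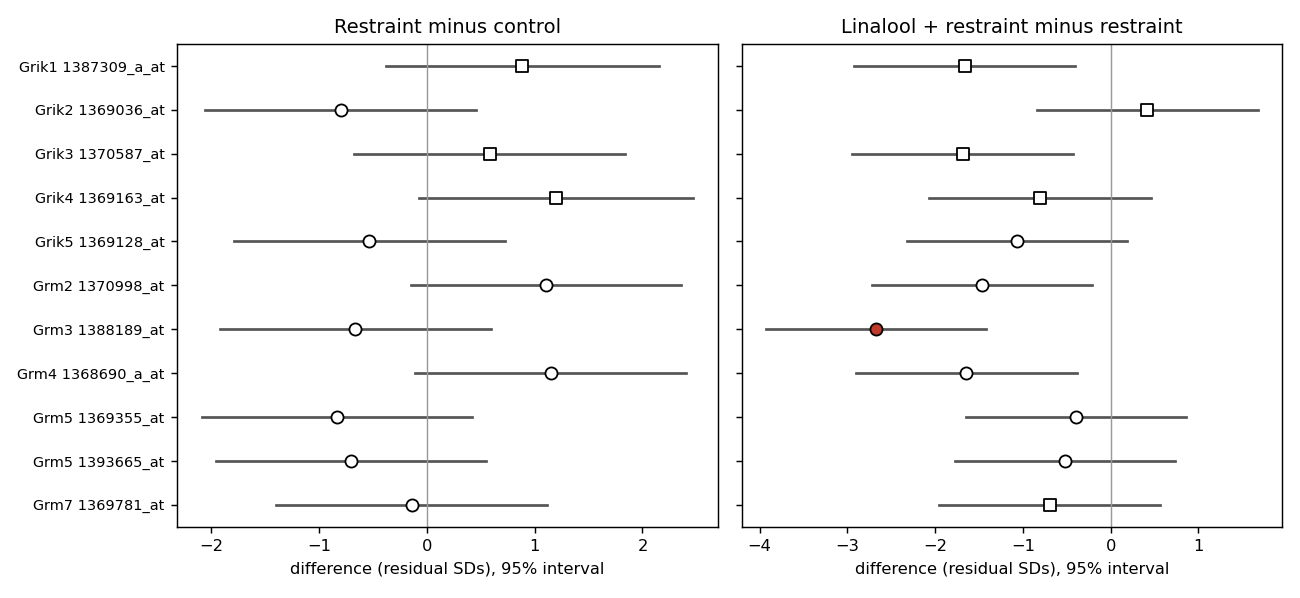
Difference in residual SDs with its 95% interval (limma) for each of the 11 probe sets, restraint minus control (left) and linalool with restraint minus restraint (right); squares are compressed probe sets and the filled point passed an adjusted p of 0.05. Only Grm3 with linalool is filled, at -2.67 residual SDs.

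Genes that work with these receptors were read from 6 lists with 124 probe sets of 64 genes. None passed after restraint by limma, and 13 had an unadjusted p under 0.05. The smallest p of each list belonged to the scaffold Dlg1 (-0.29, adjusted p = 0.111), the NMDA subunit Grin3b (1.57 residual SDs, 0.229), the metabotropic receptor Grm6 (1.07 residual SDs, 0.376), the group I scaffold Homer1 (-0.15, 0.255), the G-protein subunit Gnb1 (0.16, 0.183) and the glial glutamate transporter Slc1a2 (-1.38 residual SDs, 0.279).

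With linalool, 46 of the 124 passed (37.1%, beside 25% of all probe sets), 13 higher and 33 lower. Uncompressed probe sets are called more often and make up a larger part of the lists than of the whole array: 32 of the 62 uncompressed list probe sets passed, beside 49.7% of all uncompressed ones, and 14 of the 62 compressed, beside 20.2%. The count over the lists, both signs together, is thus near the general level. Their direction differed: 13 were higher and 33 lower, while over all probe sets 4403 were higher and 3360 (10.8%) lower. Of the 22 probe sets for AMPA, NMDA and delta subunits, 12 fell and none rose (54.5%), with a median of -1.83 residual SDs. The 12 were 8 of 14 uncompressed and 4 of 8 compressed probe sets, while 21.3% and 8.79% of all such probe sets were called lower. Grin2b fell by 0.46, Grin3a by 0.35 and Gria4, an AMPA subunit, by 0.45 (adjusted p = 0.0035, 0.00359 and 0.00481). Of 29 probe sets for group I scaffolds and the Gq pathway 11 fell and none rose (37.9%). They were 8 of 18 uncompressed and 3 of 11 compressed, again beside 21.3% and 8.79% of all such probe sets called lower. The smallest p belonged to the postsynaptic scaffolds Shank1 (-0.45, adjusted p = 1.89e-05) and Shank2 (-6.41 residual SDs, 0.00012) and the protein kinase C gene Prkcb (-0.23, 0.000618).

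The Gi/o pathway and partners of group II and III receptors went both ways, with 7 of 37 probe sets higher and 6 lower (35.1%). Elfn2, a synaptic adhesion protein that binds group III receptors, fell by 0.34 at its leading probe set (adjusted p = 0.000141), while another of its probe sets rose by 1.75 residual SDs (0.0462). Folh1, which cleaves the group II agonist N-acetylaspartylglutamate, rose by 0.23 (0.0019), and the adenylyl cyclase Adcy6 fell by 3.26 residual SDs (0.00308). Of the kainate receptor partners 3 of 15 rose and 1 fell (26.7%). Dlg4, the postsynaptic scaffold PSD-95, fell by 0.43 at 1 probe set (0.000215) and rose by 2.32 residual SDs at another (0.0152), the auxiliary subunit Neto2 rose by 2.28 residual SDs (0.0152), and Klhl17, an actin-binding partner of GluK2, by 2.29 (0.0151).

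For glutamate synthesis and transport 3 of 15 probe sets rose and 3 fell (40%). All 3 that rose belonged to Glul, the glutamine synthetase of astrocytes, with 0.44 at the leading one (adjusted p = 0.000122), and Slc1a2 fell by 0.43 and 0.82 at 2 probe sets (9.74e-05 and 0.000138). No probe set of Grm6 or Grm8 passed; of those 6, 2 had an unadjusted p under 0.05, and the smallest p was that of Grm6 (-1.41 residual SDs, adjusted p = 0.0962). The 46 calls became 22 with the thalamic score as a covariate.

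**Figure D5:**
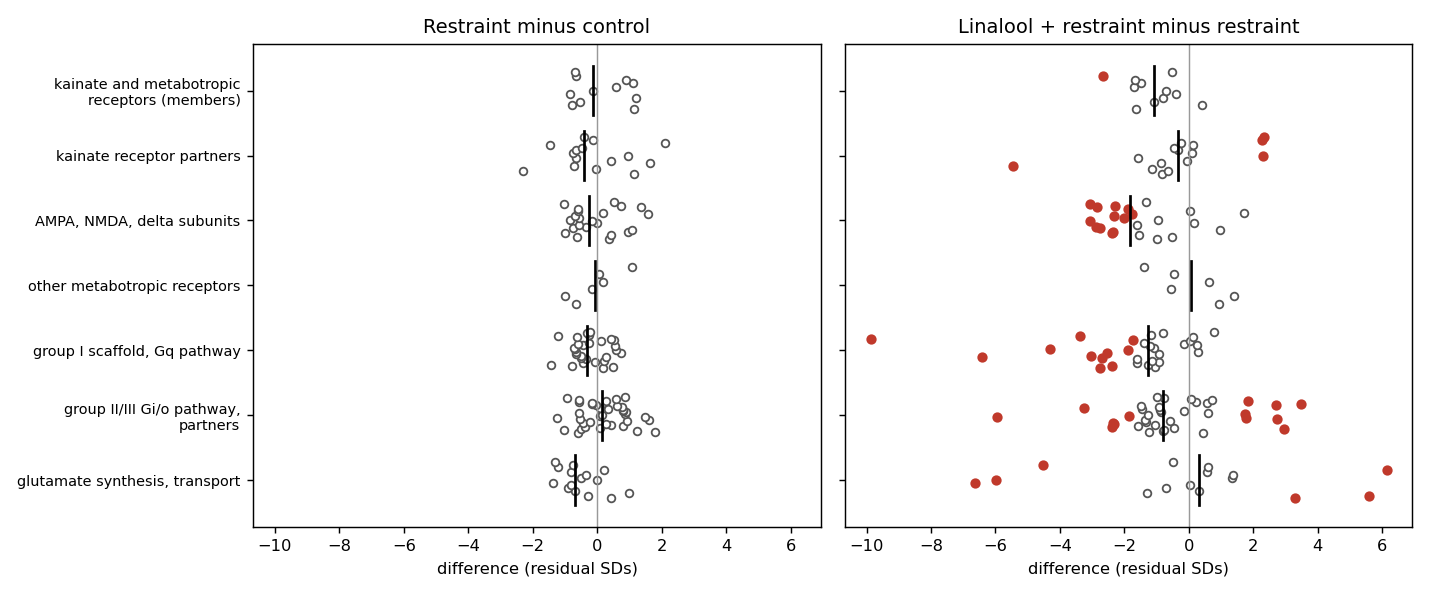
Difference in residual SDs (horizontal axis) of every probe set of the members and of the 6 lists, for restraint minus control (left) and linalool with restraint minus restraint (right); filled points passed an adjusted p of 0.05 (limma) and bars are list medians. No point is filled on the left; on the right the AMPA, NMDA and delta subunits have a median of -1.83 and the members of -1.07.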

How the data were processed

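The deposited values are log2 signals per probe set, from 1 array per rat hybridized with biotin-labelled cRNA made from 500 ng of total RNA, per the labels' protocols. The authors normalized 2 sets of 12 arrays separately, per the series design text; the method of summarization and any centring are not given in the sources used here, and the log2 scale was read from the values. The file holds 31099 probe sets; 57 array controls were left out, and of the other 31042, 20826 have 1 symbol, 436 several and 9780 none in the platform table.

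All 31042 entered 1 linear model per set without any filter (limma 3.58.1, functions lmFit and eBayes, under R 4.3.3), tested on both sides with Benjamini-Hochberg adjustment over all of them. Earlier work on these data tested 1 probe set per gene; that is an alternative here, beside normalization, level filter, variance model, covariates, replicate block and leaving out rats. The labels describe separate animals. The number of arrays limits precision, and signal over background was not measured. On simulated data with 200 probe sets moved, 44% moved by 3 residual SDs were recovered in the restraint setting (5.69% false calls) and 50% in the linalool setting (6.31%), and of those moved by 2 residual SDs 9.2% and 7.6%. The member differences that missed the threshold were all smaller than 2 residual SDs, a size at which few moved probe sets were called in the simulation. The linalool data held 7763 calls, far more than the 200 probe sets moved, which loosens the adjusted threshold. The 7.6% therefore does not carry over to that comparison, in which Grik3 at -1.69 residual SDs had an adjusted p of 0.0531 (limma).

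Marker scores are means over a list's probe sets of the deviation from the set's mean, in residual SDs. The members and lists were chosen with earlier results of these data known. All members were named, with up to 3 passing probe sets per list and comparison, or the smallest p where none passed. A second probe set of Dlg4 and of Elfn2 was named after its values were seen, because it went against the first, and so was the second of Slc1a2.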

Additional observations from a re-analysis of the deposited data

Results flagged for a closer look

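In 44 groups of 6 values (11 probe sets in 4 columns of groups) a gap test marked 3 values as far from the rest, where chance marks about 1 in 20. Restraint rat 6 stood apart at the Grm5 probe set 1393665_at: the gap to the next rat was 0.643 of the group's range beside the controls and 0.655 beside the linalool arrays, the same array normalized in 2 sets. Linalool rat 3 stood apart for Grik1 (0.688 of a range of only 0.000315 log2 units).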

How the results depend on the processing

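No member passed after restraint under any alternative run, and neither did any probe set of the 6 lists. The count of 172 probe sets in that comparison became 77 with quantile normalization, 92 with median centring, 101 with the highest probe set per gene, 91 with probe sets averaged per gene, 16 with the replicate number as a block, 0 with the meningeal score as a covariate, 1 without controls 4, 5 and 6, and 24 to 205 without single rats (74, 87, 52 and 48 without control 1, 3, 5 or 6 and 24, 37, 76 and 29 without restraint rat 1, 3, 4 or 5). Signs turned for uncalled members only: Grik2 to 0.000685 and Grm7 to 0.00899 with quantile normalization, Grm7 to 0.00749 with centring, Grik3 to -0.000164 and Grik5 to 0.0385 with the meningeal score, Grik2 to 1.3e-05, Grik3 to -0.000255 and Grik5 to 0.0557 without controls 4, 5 and 6, and Grm7 between -0.00704 and 0.00179 without single rats.

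With linalool, the 1 member call became 8 (5 higher and 3 lower) with median centring, 2 with probe sets at or above the median level, 3 with the highest probe set per gene, 4 with probe sets averaged per gene, and 1 to 3 without single rats. Grm3 passed in 21 of 22 alternatives, among them every fit without a single rat (adjusted p from 0.0033 to 0.0182); the exception was the replicate block (-0.35, adjusted p = 0.0581), under which Grm4 passed (0.0348). Replicate numbers did not pair the rats in this set: same-numbered rats deviated together at r from -0.105 to 0.182. In the first set that r was above 0 throughout, from 0.0755 to 0.223. Those values are small and do not settle whether the numbers pair the rats there. The 7763 calls became 2608 with quantile normalization, 28990 with median centring, 4229 with the highest probe set per gene, 4380 with averaged probe sets and 3639 with the thalamic score, and 6383 to 7466 without single rats; the 46 list calls became 26, 101, 22, 27 and 22 in that order, and 37 to 47. Centring adds the same small shift to every probe set of an array, which exceeds the whole spread of compressed ones. Members not called with quantile normalization turned sign under it (Grik1 0.00514, Grik3 0.00324, Grik4 0.00499, Grm7 0.00677), and so did others not called with the thalamic score (Grik2 -0.00016, Grm7 7.68e-05). With centring 4 members turned sign and passed as higher (Grik1 0.00731, Grik3 0.00733, Grik4 0.00751, Grm7 0.00749), beside Grik2. The causes of the other changes were not tested.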
